A study of Mus musculus with 6 samples.

Results

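The proteasome genes were followed in colonic mucosa of 6 male BALB/c mice, 4 wild-type (WT, Mthfd1S+/+) and 2 heterozygous (Mthfd1S+/-), with 1 Affymetrix Mouse Gene 2.0 ST array per mouse. A gene was taken as a member when a transcript cluster, the set of probes summarised for 1 locus, carried a single platform symbol made of Psma to Psmg and a number. The 3 immunoproteasome genes Psmb8, Psmb9 and Psmb10 were set apart, and where clusters shared a symbol, that of highest mean signal was kept. This gave 44 genes among the 22180 symbols of the 23521 clusters with exactly 1 symbol. Psma4, of the alpha ring, did not enter, since both of its clusters are shared with another symbol.

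Mthfd1 encodes an enzyme of folate metabolism, and its synthetase function, which attaches formate to tetrahydrofolate, is impaired in Mthfd1S+/- animals. The question put to the arrays is which transcripts differ with that impairment. Animals of both genotypes were congenic after at least 10 generations of backcrossing and had received azoxymethane (AOM, a colon carcinogen) by intraperitoneal injection at 6 mg/kg and an age of 3 months. They then had 2 cycles of 4 days of 3% dextran sulfate sodium (DSS, which injures the epithelium), at weeks 1 and 4, and were killed at week 13. The labels give an age of 7 months and describe the tissue as normal mucosa next to tumour, so the control mice also carry the carcinogen and the injury, and no untreated mouse is part of the comparison. Each array is labelled as a biological replicate from its own mouse.

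The 26S proteasome degrades proteins tagged with ubiquitin. Its 20S core is a barrel of alpha and beta rings, with the protein-cutting sites inside the beta rings, and the 19S cap placed on its ends has a base, whose ATPases unfold the substrate, and a lid, which removes the ubiquitin. Other caps, the activators PA28 and PA200, open the core without ubiquitin, dedicated chaperones assemble the particle, and interferon replaces the catalytic subunits by those of the immunoproteasome. When proteasome activity falls, the transcription factor encoded by Nfe2l1 is known to raise the subunit genes together, through antioxidant response elements in their promoters.

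Promoters of 4 members with per-mouse values below are shown, 2 with the core of such an element and 2 with a CCAAT box. RefSeq (GRCm38.p6) gave the 250 bases before the start of transcription for 36 of the 44 genes, using the first listed start of a gene. Capitals mark the core of the antioxidant response element, TGACNNNGC, in Psmb5 (chr14:54617996-54618245, minus strand) and Psmb6 (chr11:70525107-70525356, plus strand). They mark CCAAT, the box bound by NF-Y, in Psmd4 (chr3:95042615-95042864, minus strand) and Psmd14 (chr2:61711444-61711693, plus strand), where it reads as its complement ATTGG. All are written 5′ to 3′ on the strand of the gene.
Psmb5: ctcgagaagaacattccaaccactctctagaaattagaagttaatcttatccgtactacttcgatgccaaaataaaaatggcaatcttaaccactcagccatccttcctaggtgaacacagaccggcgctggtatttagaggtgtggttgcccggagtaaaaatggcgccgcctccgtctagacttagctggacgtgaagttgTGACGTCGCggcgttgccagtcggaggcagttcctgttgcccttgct
Psmb6: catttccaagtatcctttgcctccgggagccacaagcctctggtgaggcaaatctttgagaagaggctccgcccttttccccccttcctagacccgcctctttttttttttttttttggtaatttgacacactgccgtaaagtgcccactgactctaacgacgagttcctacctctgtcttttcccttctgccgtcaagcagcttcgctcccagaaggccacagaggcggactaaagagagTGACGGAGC
Psmd4: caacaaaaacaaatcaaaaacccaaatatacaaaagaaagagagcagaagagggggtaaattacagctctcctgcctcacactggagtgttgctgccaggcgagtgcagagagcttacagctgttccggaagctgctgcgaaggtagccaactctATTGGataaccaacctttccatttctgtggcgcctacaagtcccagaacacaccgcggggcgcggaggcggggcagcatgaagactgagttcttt
Psmd14: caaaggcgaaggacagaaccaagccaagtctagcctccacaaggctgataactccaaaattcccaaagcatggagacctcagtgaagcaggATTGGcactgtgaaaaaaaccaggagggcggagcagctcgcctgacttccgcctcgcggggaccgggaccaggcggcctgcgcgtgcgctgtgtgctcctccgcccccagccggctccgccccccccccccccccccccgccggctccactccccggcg
The first base of TGACNNNGC lay 47 bases before the start in Psmb5 and 9 bases before it in Psmb6, and ATTGG began 95 bases before it in Psmd4 and 159 in Psmd14.

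Counted on both strands, TGACNNNGC was in 5 of the 36 member promoters (Psmb5, Psmb6, Psmc6, Psmd12 and Psmd9), or 13.9%, against 10.1% of all 27025 promoters of this length. CCAAT was in 13 of 36 (36.1%, against 34.5%). The core of the interferon-stimulated response element, GAAA, any 2 bases and GAAA, was in Psmb3, Psmd4 and Psmd9 (8.33%, against 3.04%), and the gamma-activated site TTCNNNGAA, which is its own complement, in Psmg1 alone (2.78%, against 7.18%). These are matches of letters in a window of 250 bases and were not tested as binding sites.

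Between genotypes the proteasome genes read nearly the same. Over the 44 genes the median log2 difference, Mthfd1S+/- minus WT, was -0.0021, beside 0.012 over all tested clusters, with 21 genes above and 23 below 0; of all clusters 54% were above and 46% below. The differences ran from -0.093 for Psmd9 to 0.11 for Psmd5, and in size their median was 0.035, against 0.083 over all clusters. None of the 44 passed the adjusted threshold of 0.05 in limma (0% of all clusters did), and the smallest adjusted p among them was 0.898. At an unadjusted p under 0.05 there were 0 of 44, where 5.79% of all clusters lay (3.36% higher and 2.44% lower in Mthfd1S+/- mice). None differed by 1.5-fold, as 0.459% of all clusters did. Unmoderated least squares likewise gave 0 members at either threshold.

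The intervals bound how large a change these arrays could have missed. For all 44 genes the 95% interval included 0 and stayed inside a 1.5-fold change in either direction. For 42 it stayed inside 1.3-fold, the exceptions being Psma8 and Psmb11, and for 28 inside 1.2-fold. The number of arrays limits this precision, with a median standard error (SE) of 0.091 for a member's log2 difference against 0.11 over all clusters. A change in protein amount or activity is not seen in these values. Nor is one that any between-array normalization by the authors took out of all genes at once. In tissue RNA, fewer cells of a type and less RNA per cell also cannot be told apart.

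**Figure D1:**
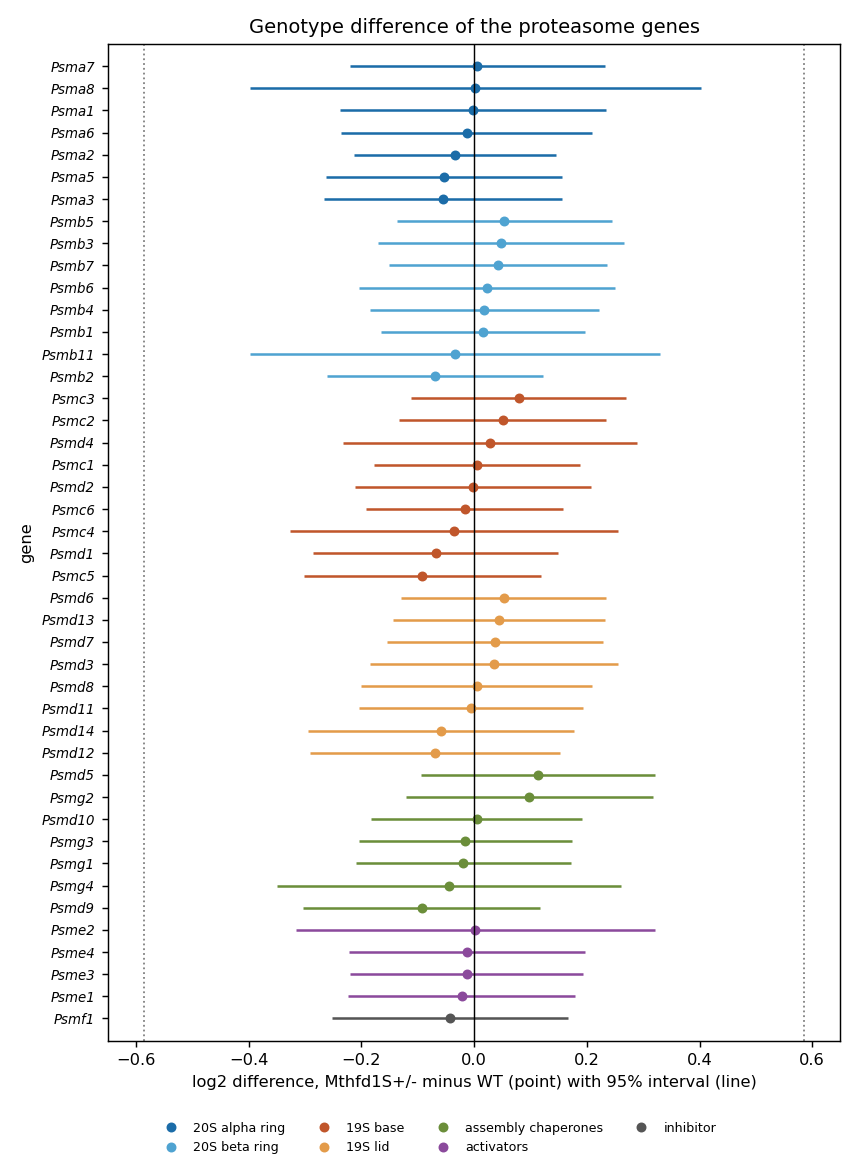
Log2 difference between genotypes (horizontal axis, Mthfd1S+/- minus WT) of the 44 proteasome genes, coloured by part of the complex; points are limma estimates, lines 95% intervals from 4 WT and 2 Mthfd1S+/- mice, and dotted lines mark 1.5-fold. Every interval crosses 0 and none reaches a dotted line; the widest belong to Psma8 and Psmb11.

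In each of the 3 catalytic beta subunits the groups overlapped. Psmb5, which carries the chymotrypsin-like site, read 7.83, 7.84, 7.86 and 7.90 on the log2 scale in the WT mice, listed here and below in the order 1 to 4, against 7.98 and 7.84 for the Mthfd1S+/- mice. The first Mthfd1S+/- mouse lay above all WT mice and the second among them; the difference was 0.054 ± 0.083 (SE), with an adjusted p of 0.951 in limma. Psmb6, of the caspase-like site, read 8.64, 8.56, 8.36 and 8.45 in WT and 8.53 and 8.52 in Mthfd1S+/- mice, so both of the latter fell inside the WT range (0.023 ± 0.099). Psmb7, of the trypsin-like site, read 9.09, 9.06, 8.95 and 9.03 in WT and 9.12 and 9.03 in Mthfd1S+/- mice, again with overlap (0.042 ± 0.085). Of the 8 beta genes 6 were above 0, with a median of 0.020.

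The structural beta subunit Psmb2 had the smallest p of the ring, at 8.25, 8.34, 8.19 and 8.25 in WT and 8.22 and 8.16 in Mthfd1S+/- mice. Its second Mthfd1S+/- mouse was below all WT mice and the first was not, and the difference was -0.070 ± 0.084 (SE; adjusted p 0.944 in limma). Psmb1 hardly varied, from 9.58 to 9.67 over the 6 mice. Psmb11, which replaces Psmb5 in the thymus, had a wide range, from 4.45 to 4.99, with both extremes in the Mthfd1S+/- mice.

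The alpha ring, which forms the gate of the core, had 2 genes above and 5 below 0 (median -0.013). Psma3 read 9.62, 9.52, 9.45 and 9.40 in WT and 9.44 and 9.45 in Mthfd1S+/- mice, all within the WT range (-0.055 ± 0.092, SE). Psma5 read 4.62, 4.66, 4.74 and 4.62 in WT, and 4.51 and 4.71 in Mthfd1S+/- mice (-0.053 ± 0.091). This cluster lay below the lower quartile of tested clusters by mean, as did that of the testis form Psma8, and its second cluster was lower still (4.11 to 4.95). No detection call was used, so signal and background are not separated for such dim clusters. Psma2 was steady, between 8.84 and 8.92 in all mice. Over the 15 measured core genes the median difference was 0.0024, with 8 above and 7 below 0.

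The base of the 19S cap had 4 genes above and 5 below 0 (median -0.0020). Its ATPases Psmc5 and Psmc3 differed in opposite directions. Psmc5 read 7.69, 7.72, 7.71 and 7.53 in WT and 7.52 and 7.62 in Mthfd1S+/- mice. WT mouse 4 stood apart from the other WT mice and next to the first Mthfd1S+/- mouse, so the groups overlapped (-0.092 ± 0.092, SE; adjusted p 0.923 in limma). Psmc3 read 7.77, 7.66, 7.66 and 7.64 in WT and 7.79 and 7.74 in Mthfd1S+/- mice, with WT mouse 1 between the latter (0.079 ± 0.083; adjusted p 0.931).

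Psmc6, a further ATPase of the same ring, was the steadiest member: its values lay between 8.96 and 8.99 in all 6 mice. Psmc4 varied most in the base, from 9.88 in WT mouse 4 to 10.28 in WT mouse 1. Psmd4, the subunit that binds ubiquitin chains, read 8.17, 8.04, 7.92 and 7.81 in WT and 8.07 and 7.96 in Mthfd1S+/- mice. Its WT mice spanned more than the genotypes differed, with a difference of 0.028 ± 0.11 (SE).

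In the lid 5 genes were above and 3 below 0 (median 0.020). Psmd14, the deubiquitylating enzyme of the lid, read 7.29, 7.35, 7.24 and 7.04 in WT, against 7.17 and 7.17 in the Mthfd1S+/- mice, which lay inside the WT range (-0.059 ± 0.10, SE). Psmd12 read 8.93, 8.72, 8.67 and 8.75 in WT and 8.67 and 8.73 in Mthfd1S+/- mice. Here WT mouse 1 was high and the other 5 mice were close together (-0.069 ± 0.097; adjusted p 0.948 in limma). Psmd6 read 7.74, 7.82, 7.75 and 7.81 in WT and 7.81 and 7.86 in Mthfd1S+/- mice, a difference of 0.052 ± 0.080 with overlap.

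The assembly chaperones held both ends of the range. Psmd5, which holds the ATPases of the base apart during assembly, read 8.75, 8.69, 8.58 and 8.79 in WT and 8.79 and 8.84 in Mthfd1S+/- mice. It was the only member of the 44 whose groups did not overlap, by a gap of 0.0011 on the log2 scale, while 14% of all tested clusters had groups that did not overlap (7.96% higher and 6.04% lower in Mthfd1S+/- mice). Its difference was 0.11 ± 0.090 (SE), a 1.08-fold ratio, for which limma gave an adjusted p of 0.898. The exact permutation test (two-sided) gave p = 0.133, and 6 arrays allow none below 0.0667.

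Psmg2, of the chaperone pair for the alpha ring, read 7.60, 7.37, 7.56 and 7.58 in WT and 7.59 and 7.66 in Mthfd1S+/- mice. WT mouse 2 was low and the others were alike; the difference was 0.098 ± 0.096 (SE). Psmd9, another chaperone of the base, read 6.47, 6.46, 6.52 and 6.30 in WT and 6.31 and 6.38 in Mthfd1S+/- mice, with WT mouse 4 the lowest of all (-0.093 ± 0.092). Of the 7 chaperone genes 3 were above and 4 below 0, with a median of -0.015.

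The 4 activator genes differed by -0.022 to 0.0020 between genotypes, with a median of -0.013. Psme1 and Psme2 encode PA28 alpha and beta, which interferon-gamma induces and which lie on chromosome 14 with 1 protein-coding gene between them (assembly GRCm38.p6). Psme1 read 9.79, 9.79, 9.67 and 9.63 in WT and 9.73 and 9.66 in Mthfd1S+/- mice. Psme2 read 6.77, 6.82, 6.48 and 6.48 in WT and 6.80 and 6.48 in Mthfd1S+/- mice. In both genes WT mice 1 and 2 and the first Mthfd1S+/- mouse were above the other 3 mice. The differences between genotypes were -0.022 ± 0.088 and 0.0020 ± 0.14 (SE), and those for Psme1, and for Psme3 and Psme4 below, turned positive when arrays were centred on their medians. Centring also raised the median over all clusters, from 0.012 to 0.039.

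Psme3, of the nuclear PA28 gamma, read 7.75, 7.59, 7.54 and 7.58 in WT and 7.58 and 7.63 in Mthfd1S+/- mice (-0.013 ± 0.090, SE). Psme4, of PA200, read 9.03, 9.03, 8.84 and 8.96 in WT and 8.99 and 8.91 in Mthfd1S+/- mice (-0.013 ± 0.091). The groups overlapped in both. Psmf1, of the inhibitor PI31, read 8.31, 8.35, 8.26 and 8.35 in WT. The Mthfd1S+/- mice, at 8.38 and 8.16, were the highest and the lowest of the 6, so the difference of -0.043 ± 0.092 averages opposite values.

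That split was common. Against the WT mean the first Mthfd1S+/- mouse was higher for 30 of 44 genes (median 0.040) and the second lower for 31 (median -0.040). Of all 23521 tested clusters the first was higher for 13122 and the second lower for 11506. Both lay above it for 9 genes, both below for 10, the first above and the second below for 21, and the reverse for 4. The shares of all tested clusters were, in that order, 31.7%, 24.9%, 24.1% and 19.3%. In the core the medians were 0.068 and -0.039, in the base 0.049 and -0.026, in the lid 0.047 and -0.030 and in the activators 0.022 and -0.057. Each part of the complex thus had the first Mthfd1S+/- mouse above and the second below the WT mean. Leaving out the second gave 30 members above 0 of 44, and leaving out the first 13.

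The WT mice also differed among themselves. WT mouse 1 was above a gene's 6-mouse mean in 35 of the 44 (48.8% of all clusters), including 9 of 9 base genes and 4 of 4 activators. WT mouse 3 was above it in 15 and WT mouse 4 in 16 (47.1% and 50.2% of all clusters). Of the 44 genes 17 had their highest value in WT mouse 1, 11 in the first Mthfd1S+/- mouse and 9 in WT mouse 2, while 15 had their lowest in WT mouse 4. The activators were above their means in WT mice 1 and 2 (medians 0.11 and 0.074) and below in WT mice 3 and 4 (-0.098 and -0.052). The assembly chaperones had another order, with WT mouse 2 the lowest (-0.057). WT mouse 1 and the first Mthfd1S+/- mouse are also the only mice whose identifier begins with A, the other 4 having B; the labels do not say what the letter means. Within A, 17 of 44 genes were higher and 27 lower in the Mthfd1S+/- mouse (median -0.032, 1 mouse against 1), and within B 17 and 27 (median -0.018, 1 against 3). Counts within a letter, and of the highest and lowest mouse, were not made over all clusters, so a shift of all clusters is not separated from them.

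**Figure D2:**
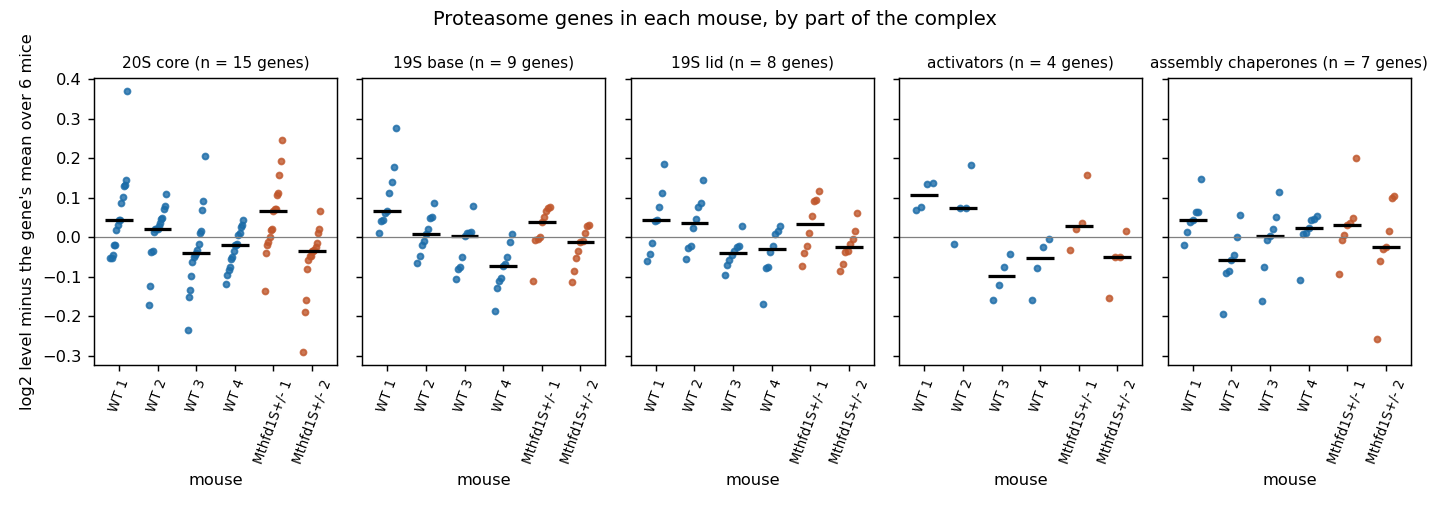
Log2 level of each proteasome gene minus its own mean over the 6 mice (vertical axis), by mouse (horizontal axis) and by part of the complex; points are genes, blue WT and orange Mthfd1S+/-, and bars are medians. WT mouse 1 and the first Mthfd1S+/- mouse have medians above 0 in all 5 panels, and the second Mthfd1S+/- mouse has a median below 0 in each.

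These steps between mice were small. A member's range over the 6 mice had a median of 0.20 on the log2 scale, against 0.34 over all clusters, many of them dimmer. The range was under 0.25 for 30 of 44 genes, as for 28.8% of all clusters, and over 0.5 for Psma8 and Psmb11, as for 21.3%. Between WT mice the median standard deviation of a member was 0.083, against 0.11 over all clusters. By mean signal 33 of the 44 lay above the upper quartile of tested clusters; signals of different probes are not levels that can be set against each other.

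Markers of cell types moved between the same mice. With each gene centred on its 6-mouse mean, the proteasome genes averaged 0.067, 0.0090, -0.034 and -0.038 in the WT mice, in order, with 0.039 and -0.043 for the Mthfd1S+/- mice. The 9 cycling cell markers averaged 0.21, 0.14, -0.12 and -0.19 in WT and 0.15 and -0.19 in Mthfd1S+/- mice, so both lists were above 0 in the same 3 mice. In WT mouse 2 the parts of the complex differed, with activators at 0.078 and the lid at 0.034, but the beta ring at -0.012 and assembly chaperones at -0.060. The 9 neutrophil markers averaged 0.097, 0.11, 0.028 and -0.13 in WT and 0.15 and -0.25 in Mthfd1S+/- mice, above 0 in those 3 mice and in WT mouse 3. The 12 smooth muscle markers averaged -0.18, -0.27, -0.038 and 0.090, then -0.036 and 0.43, and all 12 were above 0 between genotypes (2 at an unadjusted p under 0.05). The 10 epithelial markers averaged 0.088, 0.031, 0.048 and -0.017, then -0.014 and -0.14, and all 10 were below 0 between genotypes (0 at an unadjusted p under 0.05). Other lists moved too: 10 of 10 markers of enteric neurons and glia (median 0.28), 10 of 10 of fibroblasts (0.22) and 10 of 10 of enteroendocrine cells (0.31) were above 0. They had 3, 3 and 2 genes at an unadjusted p under 0.05. These 3 higher lists, like smooth muscle, had their highest mean in the second Mthfd1S+/- mouse. Of 9 adipocyte markers 8 were below 0 (median -0.53), with 2 at that p. They averaged 0.32, -0.092, 0.99 and -0.32 in WT and -0.46 and -0.44 in Mthfd1S+/- mice, with WT mouse 3 far above the rest. Also below 0 were 8 of 10 absorptive colonocyte (median -0.037, 2 at that p) and 8 of 10 goblet cell markers (-0.015, 1). The first Mthfd1S+/- mouse was below the WT mean for 10 of 10 goblet cell markers and the second above it for 6. Of 8 B and plasma cell markers 6 were below 0 (median -0.076, 2 at that p), among them Tnfrsf17 (-0.44) and Mzb1 (-0.38). The other 2, Pax5 (0.18) and Cd79b (0.17), were above 0. Other lists were split, with 5 of 10 endothelial (1 at that p) and 4 of 8 T and NK cell markers (0) above 0. So were 6 of 10 macrophage and dendritic cell, 5 of 9 neutrophil and 4 of 9 cycling cell markers (0 at that p in each). Of all clusters 54% were above and 46% below 0, with 3.36% higher and 2.44% lower at that p.

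Adjusted for the smooth muscle mean, 34 of 44 proteasome genes were above 0 and the median was 0.056, beside 0.014 over all clusters. That mean was highest, at 0.43, in 1 of the 2 Mthfd1S+/- mice, so its effect cannot be told apart from that mouse. Leaving this mouse out gave 30 of 44 above 0 and a median of 0.040. With the cycling cell mean, chosen after seeing the data, 23 were above 0 and the median was 0.0068, beside 0.012 over all clusters. In neither covariate fit did a member reach an unadjusted p under 0.05. The part of the cell mixture in the values of single mice was not tested. All 10 epithelial, 10 of 10 goblet cell and 10 of 10 absorptive colonocyte markers lay above the upper quartile of tested clusters, and so did 11 of 12 smooth muscle markers. Ranks of different probes do not give the share of muscle in the tissue, which was not measured.

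**Figure D3:**
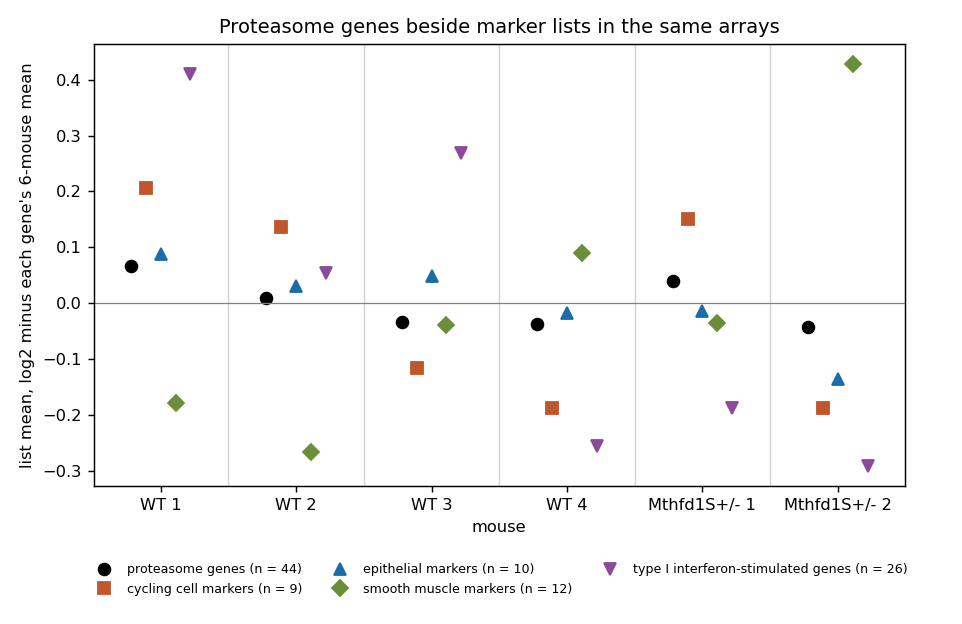
Mean of gene-centred log2 values (vertical axis) of the 44 proteasome genes and 4 marker lists in each mouse (horizontal axis); 1 symbol is 1 list in 1 array. The proteasome mean stays between -0.043 and 0.067 and is above 0 in WT mice 1 and 2 and the first Mthfd1S+/- mouse, as the cycling cell mean is, while smooth muscle reaches 0.43 in the second Mthfd1S+/- mouse.

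The immunoproteasome genes, which interferon induces, were not members and are set beside the activators. Psmb10 read 9.24, 8.995, 9.05 and 9.15 in WT and 9.10 and 8.63 in Mthfd1S+/- mice. The second Mthfd1S+/- mouse alone was low, and the first lay in the WT range (-0.25 ± 0.14, SE; adjusted p 0.864 in limma). Without the second the difference was -0.0094, and without the first -0.48. Psmb8 read 7.50, 7.36, 7.47 and 7.33 in WT and 7.41 and 7.30 in Mthfd1S+/- mice (-0.058 ± 0.090). Psmb9 read 6.43, 6.26, 6.44 and 6.42 in WT and 6.48 and 6.35 in Mthfd1S+/- mice (0.026 ± 0.093).

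**Figure D4:**
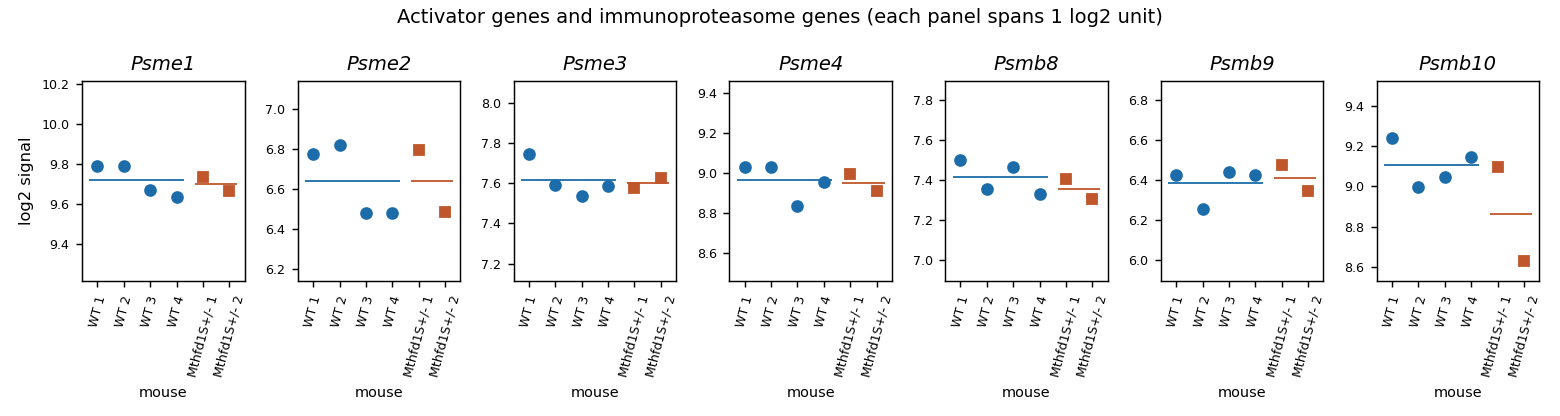
Log2 signal (vertical axis, 1 log2 unit in each panel) of the 4 activator and 3 immunoproteasome genes in each mouse (horizontal axis); circles are WT, squares Mthfd1S+/-, and lines group means. Psme1 and Psme2 are high in WT mice 1 and 2 and the first Mthfd1S+/- mouse; Psmb10 is low in the second Mthfd1S+/- mouse, at 8.63.

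Among interferon-stimulated genes, the 26 type I genes averaged 0.41, 0.055, 0.27 and -0.26 in WT and -0.19 and -0.29 in Mthfd1S+/- mice, each gene centred on its 6-mouse mean. WT mouse 4 was thus as low as the Mthfd1S+/- mice. Between genotypes all 26 were below 0 (median -0.30), with 9 lower at an unadjusted p under 0.05, where 2.44% of all clusters lay, and 0 past the adjusted threshold in limma. The smallest p were those of the nucleic acid sensor Zbp1 (-0.53 ± 0.14, SE), Xaf1 (-0.61 ± 0.18) and Dhx58 (-0.44 ± 0.15). The 12 interferon-gamma-induced genes, lowest on average in WT mouse 4 (-0.12), had 10 below 0 (median -0.058) and 0 at an unadjusted p under 0.05, with Cxcl9 at 0.23 ± 0.15, Gbp4 at -0.34 ± 0.26 and Cxcl10 at -0.11 ± 0.088. Against the WT mean Gbp4 had -0.86 in the first Mthfd1S+/- mouse and 0.18 in the second. Of the 7 genes for loading peptides onto MHC class I, 4 were below 0 and 0 were at that p. The peptide transporter gene Tap1 had -0.30 ± 0.13, B2m, the light chain of class I, -0.043 ± 0.078 and the heavy chain gene H2-K1 0.040 ± 0.10. A difference between these lists and the proteasome genes was not tested.

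Genes that work with the proteasome gave 0 at an unadjusted p under 0.05 as well. Among 10 regulators, 5 were above and 5 below 0. Maff, a small partner of Nfe2l1, had 0.24 ± 0.13 (SE) and the NF-Y subunit genes Nfya and Nfyc 0.15 ± 0.11 and -0.10 ± 0.081. Against the WT mean Maff had 0.41 in the first Mthfd1S+/- mouse and 0.067 in the second, and Nfya 0.014 and 0.29. Nfe2l1 itself read 8.30, 8.18, 8.31 and 8.27 in WT and 8.31 and 8.42 in Mthfd1S+/- mice, a difference of 0.097 ± 0.085 (adjusted p 0.908 in limma). Its groups narrowly did not overlap, with the first Mthfd1S+/- mouse at 8.312 and the highest WT mouse at 8.309. Among the 10 regulators 2 had groups that did not overlap with Mthfd1S+/- mice higher, and 1 with them lower. Of all tested clusters 7.96% and 6.04% did. Of 13 other subunits and cofactors 7 were above and 6 below 0, among them the core maturation factor Pomp at -0.10 ± 0.093, the ligase Ube3c at 0.082 ± 0.079 and the deubiquitylase Uchl5 at 0.076 ± 0.088.

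Delivery factors had 7 of 12 above 0, with the shuttle gene Ubqln1 at 0.18 ± 0.082 (SE), Faf2 at 0.12 ± 0.081 and the p97 cofactor Nsfl1c at -0.10 ± 0.088. Ubqln1 read 9.44, 9.53, 9.39 and 9.48 in WT and 9.62 and 9.65 in Mthfd1S+/- mice, both above all WT mice, with an adjusted p of 0.837 in limma. Of the 12 delivery factors 3 had both Mthfd1S+/- mice above all WT mice and 0 had both below. Of all tested clusters 7.96% and 6.04% did. Ubiquitin-conjugating enzymes had 7 of 16 above 0, with Cdc34 at -0.24 ± 0.13, Ube2l3 at -0.11 ± 0.081 and Ube2j1 at -0.14 ± 0.11. Against the WT mean Cdc34 had -0.43 in the first Mthfd1S+/- mouse and -0.040 in the second. For these 16 the same counts were 0 above and 3 below. Of 6 listed genes for ubiquitin and its activation, 1 had a cluster of its own, the activating enzyme Uba6, at 0.078 ± 0.10.

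Array medians lay between 5.48 and 5.53, and any pair of mice correlated at 0.991 to 0.995 across clusters, which are not independent replicates. The cluster of Mthfd1 itself read 7.64, 7.63, 7.50 and 7.75 in WT and 7.96 and 7.63 in Mthfd1S+/- mice (adjusted p 0.890 in limma). Whether the allele alters this transcript is not stated, so the probe level is no check of genotype.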

How the data were processed

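RNA of 6 mice was measured on 1 array each. Per the submitters' processing notes, the authors summarised the arrays with Affymetrix Expression Console; version, algorithm, background correction and annotation build: not given in the sources used here. Deposited values are log2 signals per transcript cluster, the scale being judged from their range of 1.06 to 13.5. Of 41345 clusters, 23521 had 1 symbol in the platform annotation, 1814 several and 16010 none; all columns belonged to the 6 arrays. All 44 members matched RefSeq (GRCm38.p6) by gene identifier with the same symbol.

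The comparison of genotypes used limma (version 3.58.1, under R 4.3.3; two-sided lmFit and eBayes without covariates), over the 23521 clusters, with 4 residual and 4.35 prior degrees of freedom and Benjamini-Hochberg adjustment; the step was tested on simulated data. Related genes and cell type markers were represented by their highest-mean cluster. Values in every mouse are given for catalytic subunits, activators, the inhibitor, Psmd4, Psmd14, the 2 smallest p in each role, any member at an unadjusted p under 0.05, and the immunoproteasome genes; other lists name up to 3 genes by p. Other genes and values were chosen after their values were seen. The members and lists were chosen with earlier results of these data known, so counts over them have no test. Alternatives changed the scaling, the clusters tested, the filter, the row per gene, the moderation, the covariates and the mice.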

Additional observations from a re-analysis of the deposited data

Results flagged for a closer look

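In 2 of the 44 members 1 WT mouse stood apart from the other 3 by Dixon's criterion for 4 values (the gap to the nearest mouse over the whole range, above its 95% critical value). For Psmc5 it was WT mouse 4, at 7.53 against 7.69 to 7.72, with a ratio of 0.870. For Psmg2 it was WT mouse 2, at 7.37 against 7.56 to 7.60, with a ratio of 0.847. Chance alone marks about 1 in 20 groups, and 4.55% of members and 4.92% of all tested clusters were marked.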

How the results depend on the processing

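No member passed the adjusted threshold or reached an unadjusted p under 0.05 under any alternative run; the smallest adjusted p of a member in limma ran from 0.626, without the first Mthfd1S+/- mouse, to 0.996, with the smooth muscle mean. Directions near 0 turned. Of the 44 genes 31 were above 0 with arrays centred on their medians and 28 when quantile normalized again, against 21. The median over all clusters rose as well, from 0.012 to 0.039 and 0.034, so these counts include a shift of all clusters. Centring gave Psme1 0.0051, Psme3 0.014 and Psme4 0.015, and quantile normalization Psme3 0.0029. The second cluster of Psmg2 had -0.016. With the replicate number as a block, 12 of 44 were above 0 (median over all clusters 0.014), and Psmb6 had -0.073, Psmb7 -0.0027, Psmd4 -0.094 and Psme2 -0.16. Replicate numbers 3 and 4 occur only in WT, so WT mice 3 and 4 do not enter the genotype difference of this fit. Same-numbered mice share an identifier letter (A for number 1, B for 2) whose meaning is not stated, and their deviations correlated at 0.12 and -0.044 across clusters; the block gave 0 calls among members, as without it. With the identifier letter as covariate 11 of 44 were above 0 and 33 below (median over all clusters 0.010), and Psmb6 had -0.0055, Psmd4 -0.020 and Psme2 -0.056. With the smooth muscle mean the medians were 0.056 for all members, 0.085 for the core and 0.014 for all clusters. Psma3 then had 0.0019, Psmd14 0.039, Psme1 0.064, Psme4 0.062 and Psmf1 0.044. Leaving out 1 mouse at a time gave medians of -0.039 to 0.068 for the core and -0.030 to 0.047 for the lid. Single genes then ran from -0.15 to 0.047 (Psma5), -0.017 to 0.12 (Psmb5), -0.025 to 0.068 (Psmb6), -0.00029 to 0.084 (Psmb7), -0.031 to 0.090 (Psmd4), -0.058 to 0.014 (Psme1), -0.15 to 0.16 (Psme2), -0.039 to 0.031 (Psme3), -0.055 to 0.030 (Psme4) and -0.15 to 0.067 (Psmf1). The cause was not tested.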
